A study of Mus musculus with 14 samples.

Results

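A set of 10 genes of endothelial adhesion and of the endothelial junction was followed in mouse lung: Selp, Sele, Icam1, Vcam1, Cdh5, Pecam1, Cldn5, Tek, Angpt1 and Angpt2. Members were every probe whose gene symbol, in its present or older form, is one of these 10 names. Of the 10 genes, 9 had exactly 1 probe each and Icam1 was named by none, so 9 of 19621 probes and 9 of 13923 named genes are described here. Selp rose with mechanical ventilation in both genotypes, by 5.23-fold in jnk1-/- lungs and 4.51-fold in wild-type lungs, and no other member passed the test in any comparison.

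Lung RNA of 14 adult mice on the C57/BL6 background was hybridized to single-colour CodeLink mouse arrays, 1 array per animal. The groups were 4 jnk1-/- mice ventilated for 8 hours at a tidal volume of 10 ml/kg with a positive end-expiratory pressure of 2 cmH2O, 3 unventilated jnk1-/- controls, 4 wild-type mice ventilated in the same way and 3 unventilated wild-type controls. jnk1 encodes c-Jun NH2-terminal kinase-1, a stress-activated kinase, and jnk1-/- mice lack it in every cell, so a change in lung endothelium cannot be told apart from one that arises elsewhere in the animal. Controls were killed immediately after anesthesia, whereas ventilated mice spent 8 hours on the ventilator with an hourly muscle relaxant and hourly lung recruitment. A change with ventilation below therefore means a change with this whole procedure, whose parts and elapsed time cannot be told apart. The comparisons asked which genes answer to ventilation in this sense and whether the loss of jnk1 alters that answer. Unsorted tissue of the right lung was assayed, in which fewer endothelial cells and less RNA per endothelial cell cannot be told apart.

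Endothelial cells line the vessels of the lung and hold the barrier between blood and alveoli. When they are activated they display selectins, on which leukocytes roll, and then immunoglobulin-type adhesion molecules, to which leukocytes attach firmly. The barrier itself rests on adherens junctions of VE-cadherin and on tight junctions that hold claudin-5, and it is steadied by the receptor Tie2, which Angpt1 activates and Angpt2 can antagonize.

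Selp and Sele encode P-selectin and E-selectin, lie near each other on chromosome 1 and had the largest and the next largest estimate among the members in jnk1-/- lungs, of which only that of Selp passed the test, so their proximal promoters are shown. The RefSeq table of promoters (GRCm38.p6) held 5 of the 10 members, Selp, Sele, Icam1, Cldn5 and Tek. The 250 bases before the annotated start are printed on the plus strand, 5' to 3', with matches to 3 patterns in capitals. These were the AP-1 pattern TGANTCA, bound by dimers of Jun and Fos proteins, the kappa B pattern of NF-kappaB, and the TATA pattern TATAAA, each searched on both strands.
Selp, chr1:164115014-164115263: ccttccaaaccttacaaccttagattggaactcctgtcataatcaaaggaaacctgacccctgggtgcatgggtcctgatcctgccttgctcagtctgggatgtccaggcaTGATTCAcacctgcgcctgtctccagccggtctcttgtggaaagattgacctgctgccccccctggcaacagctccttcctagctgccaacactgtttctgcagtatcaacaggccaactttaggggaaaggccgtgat
Sele, chr1:164047984-164048233: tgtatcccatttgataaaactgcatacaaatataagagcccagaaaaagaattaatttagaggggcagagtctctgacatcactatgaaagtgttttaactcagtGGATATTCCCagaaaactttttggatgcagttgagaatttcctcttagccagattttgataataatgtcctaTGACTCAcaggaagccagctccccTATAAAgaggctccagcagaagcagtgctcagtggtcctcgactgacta
The Selp window held 1 AP-1 match, from base -139 to -133 relative to the start, and no match to the other patterns. The Sele window held an AP-1 match from -73 to -67, a kappa B match from -145 to -136 and a TATA match from -49 to -44, and none of these overlap. Among 32851 promoter windows of the same length, 6.75% held the AP-1 pattern, 23.2% the kappa B pattern and 12.4% the TATA pattern. The Icam1 window held 1 kappa B match, and those of Cldn5 and Tek held no match. A match describes these letters only and is not a measured binding site. The RefSeq gene span of Sele (chr1:164039614-164058487) begins upstream of the start used for its window, whereas that of Selp (chr1:164115264-164150026) begins at the base after its window.

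All values below are log2 intensities after normalization between arrays by cyclic loess, and changes are differences of group means on that scale, tested with limma and called at an adjusted p under 0.05 over all probes. A floor was set at the 1st percentile, -0.63. The authors' own normalized values have a floor at 3.12 that holds 24.5% of them, and a value at that floor was read as not measured. Levels of different genes are not set against each other, since each probe has its own brightness. Where each probe lies within its gene was not given in the sources used.

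Several facts of the whole series bear on these genes. The probe of Mapk8, which encodes JNK1, read between 1.31 and 4.02 in ventilated jnk1-/- lungs, -0.36 and 2.92 in jnk1-/- controls, 2.00 and 4.42 in ventilated wild-type lungs and 2.68 and 3.25 in wild-type controls, so the groups overlapped at low values and this probe checks the genotype little. Of 12 skeletal muscle markers 11, and of 14 squamous epithelium markers 13, were higher in jnk1-/- controls than in wild-type controls, against 4.03% of all probes called in either direction. The 3 jnk1-/- control arrays held summed log2 levels of the muscle list of 13.1 to 13.6, against 8.15 to 9.12 on all other arrays. Every comparison that uses jnk1-/- controls therefore sets lungs with and without these muscle and squamous transcripts against each other, and their part in the results below was not tested. Wild-type control replicates 2 and 3 had 10.7% and 6.98% of probes at the lowest deposited value, against 1.86% to 4.52% on the other arrays. These same arrays differed from each other less than from replicate 1, with an SD of the difference over probes of 0.428 against 0.612 and 0.510, and jnk1-/- control replicates 1 and 2 were likewise close, with 0.364 against 0.694 and 0.678. The defining endothelial markers Pecam1, Cldn5 and Tek were measured above the authors' floor on all 14 arrays, whereas Cdh5 was at that floor on 11 of 14.

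**Figure D1:**
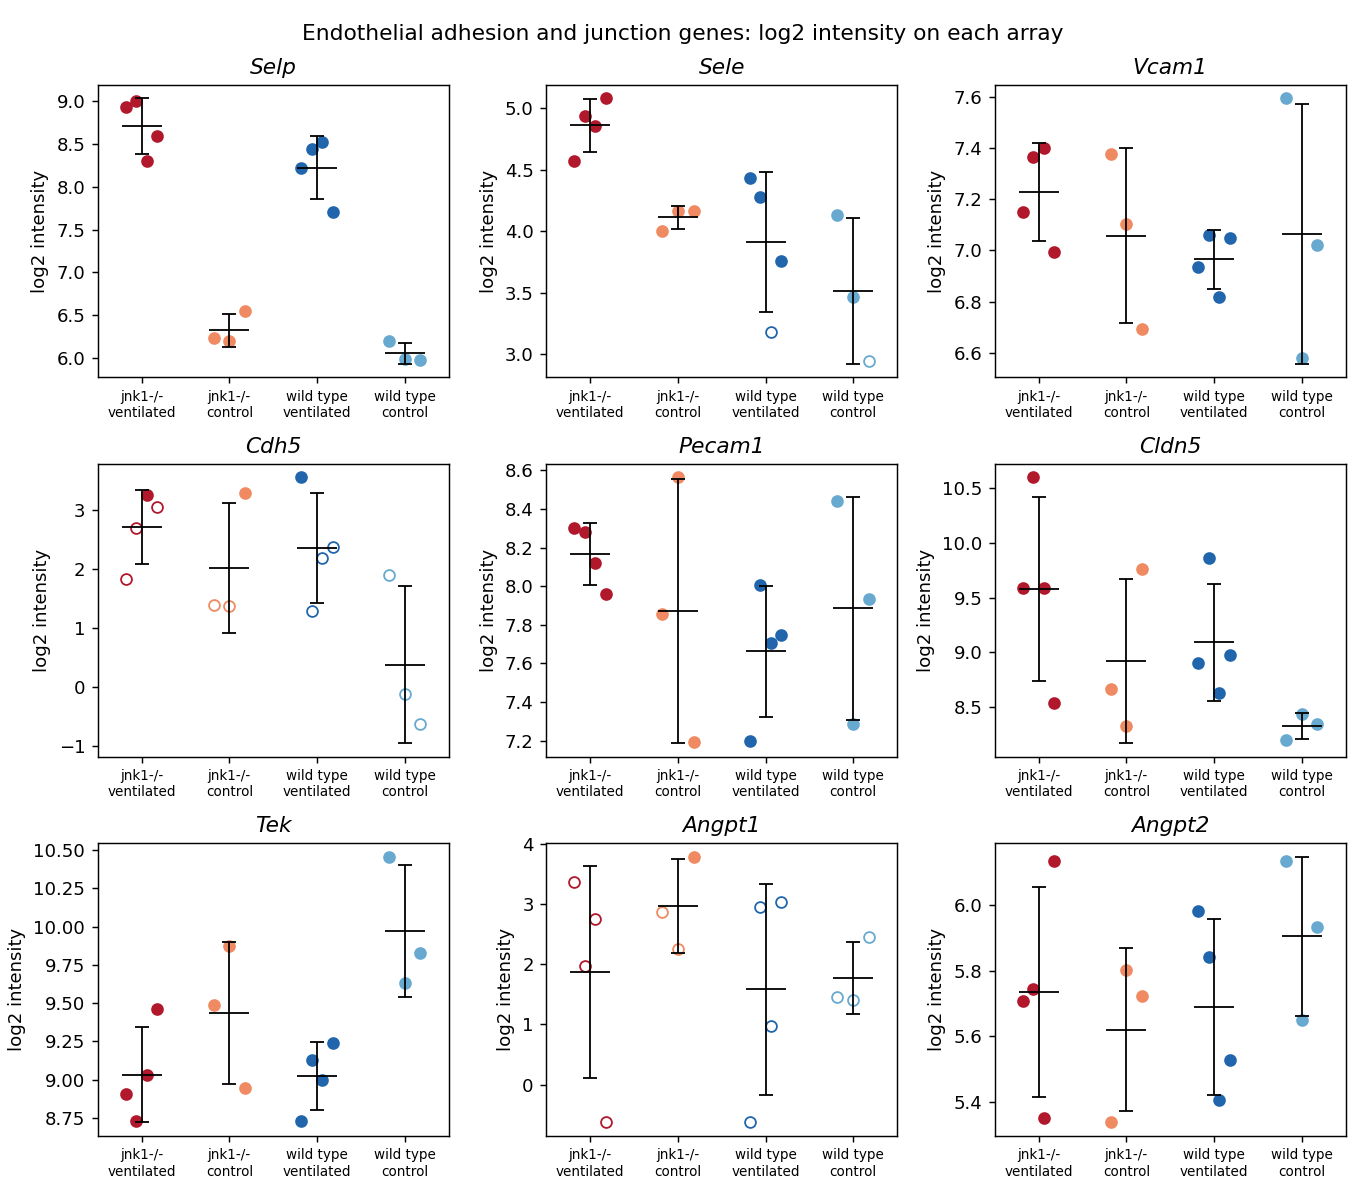
Log2 intensity (y axis) of the 9 measured genes on each of 14 arrays, by group (x axis). Points are arrays, open points are values at the authors' floor, and bars are the group mean with its SD (n = 4 ventilated and n = 3 control mice per genotype); ventilated and control arrays separate in both genotypes for Selp.

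P-selectin, stored in Weibel-Palade bodies of endothelial cells and in platelet granules, captures rolling leukocytes. In ventilated jnk1-/- lungs Selp had 8.94, 9.01, 8.31 and 8.59, against 6.23, 6.19 and 6.55 in jnk1-/- controls. In ventilated wild-type lungs it had 8.23, 8.44, 8.53 and 7.70, against 6.20, 5.99 and 5.97 in wild-type controls. Every ventilated lung lay above every control lung, and the lowest ventilated array, a wild-type one, was still more than 1 log2 unit above the highest control.

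The change in Selp was 2.39 (SE 0.23, 95% interval 1.88 to 2.90, limma adjusted p = 2.05e-04) in jnk1-/- lungs and 2.17 (SE 0.23, 1.66 to 2.68, limma adjusted p = 7.98e-04) in wild-type lungs. Of 19621 probes, 0.148% had a smaller p in the jnk1-/- comparison and 0.102% in the wild-type comparison. The level was 8.71 ± 0.33 (SD, n = 4) in ventilated jnk1-/- lungs, 6.32 ± 0.19 (SD, n = 3) in jnk1-/- controls, 8.22 ± 0.37 (SD, n = 4) in ventilated wild-type lungs and 6.05 ± 0.12 (SD, n = 3) in wild-type controls. In order from high to low the groups ran ventilated jnk1-/-, ventilated wild type, jnk1-/- control and wild-type control. Only the step between ventilated and control lungs exceeded the spread, since the arrays of the ventilated genotypes overlapped, as did those of the control genotypes. Selp belongs to a list of genes changed with ventilation that the study drew from these same arrays, so its rise is not independent of that choice. With the methods' t-test, Selp had an adjusted p of 0.0454 in jnk1-/- lungs and 0.0718 in wild-type lungs, where it misses the threshold.

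Sele, the endothelium-restricted selectin, was dimmer. It had 4.57, 4.94, 4.85 and 5.08 in ventilated jnk1-/- lungs, against 4.00, 4.16 and 4.17 in jnk1-/- controls. Wild-type lungs had 4.43, 4.28, 3.18 and 3.76 after ventilation, against 4.13, 3.46 and 2.95 in controls, with 1 array of each wild-type group at the authors' floor. The groups did not overlap in jnk1-/- mice and overlapped widely in wild-type mice. The difference was 0.75 (SE 0.32, 0.05 to 1.45) in jnk1-/- lungs and 0.40 (SE 0.32, -0.30 to 1.10) in wild-type lungs, and neither passed the test, with limma adjusted p = 0.158 and 0.537.

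Vcam1 (chr3:116110020-116129688), the ligand of the integrin VLA-4, was level across the groups. Its arrays read 7.15, 7.36, 7.40 and 6.99 in ventilated jnk1-/- lungs, against 7.38, 7.10 and 6.69 in jnk1-/- controls. They read 6.93, 7.06, 6.82 and 7.05 in ventilated wild-type lungs, against 7.59, 6.58 and 7.02 in wild-type controls. All groups overlapped, and the differences of 0.17 (-0.36 to 0.70) in jnk1-/- and -0.10 (-0.63 to 0.43) in wild-type lungs had limma adjusted p = 0.726 and 0.866. The intervals leave out a rise of the size seen for Selp.

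**Figure D2:**
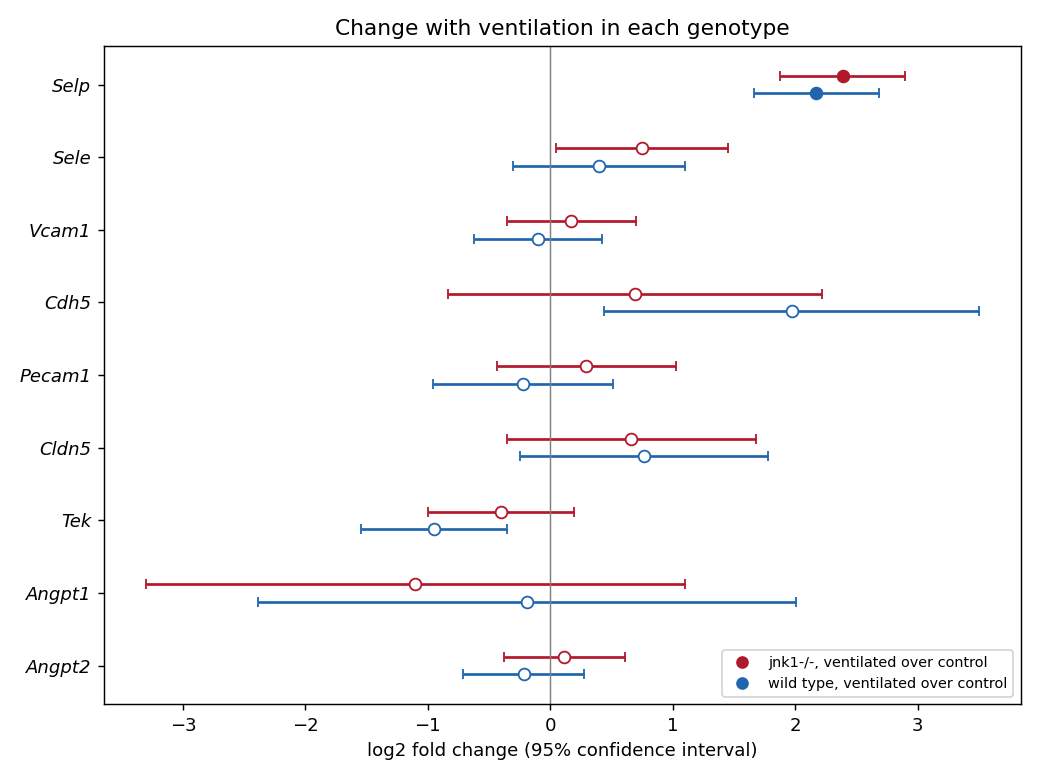
Log2 fold change of ventilated over control lungs (x axis) for each gene (y axis), in jnk1-/- (red) and wild-type mice (blue), with 95% intervals from limma; filled points passed an adjusted p under 0.05. Selp alone is filled, at 2.39 in jnk1-/- and 2.17 in wild-type lungs, and the wide intervals of Cdh5 and Angpt1 belong to probes mostly at the authors' floor.

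Among the junction genes, Pecam1 (chr11:106654213-106715281), a platelet endothelial adhesion molecule of cell borders, did not pass the test in either genotype. It averaged 8.17 ± 0.16 (SD, n = 4) in ventilated jnk1-/- lungs and 7.87 ± 0.69 (SD, n = 3) in jnk1-/- controls, and 7.66 ± 0.34 (SD, n = 4) in ventilated wild-type lungs and 7.89 ± 0.58 (SD, n = 3) in wild-type controls. The estimates differed in sign, 0.30 (-0.44 to 1.03) and -0.22 (-0.96 to 0.51), and each interval held 0.

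Cldn5 (chr16:18776847-18778262) encodes claudin-5 of endothelial tight junctions. Its values were 9.59, 10.60, 9.59 and 8.54 in ventilated jnk1-/- lungs, against 8.66, 8.33 and 9.76 in jnk1-/- controls. In wild-type mice they were 8.91, 9.86, 8.63 and 8.97 after ventilation, against 8.20, 8.44 and 8.34 in controls. The wild-type groups did not overlap and the jnk1-/- groups did, with 1 high control array. The differences were 0.66 (-0.35 to 1.68) and 0.77 (-0.25 to 1.78), with limma adjusted p = 0.414 in jnk1-/- and 0.394 in wild-type lungs.

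Cdh5 (chr8:104101613-104144504) encodes VE-cadherin. Its probe was at the authors' floor on 3 of 4 arrays of each ventilated group, on 2 of 3 jnk1-/- controls and on all 3 wild-type controls, so no size of a change is given. It was not called in wild-type lungs (limma adjusted p = 0.141) but passed the test without wild-type control replicate 1 (adjusted p = 0.0434). Over all alternatives its adjusted p ran between 0.0225 and 0.902.

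Of the angiopoietin system, the receptor gene Tek (chr4:94739086-94874976), which encodes Tie2, had the largest negative estimate in wild-type lungs among the members measured above the floor. Tek read 8.73, 9.13, 9.001 and 9.24 in ventilated wild-type lungs, against 10.46, 9.63 and 9.83 in wild-type controls. It read 8.90, 8.73, 9.03 and 9.46 in ventilated jnk1-/- lungs, against 9.49, 9.87 and 8.95 in jnk1-/- controls. The wild-type groups did not overlap, whereas jnk1-/- control replicate 3 lay among the ventilated arrays.

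The difference in Tek was -0.40 (SE 0.27, -1.001 to 0.19, limma adjusted p = 0.392) in jnk1-/- lungs and -0.95 (SE 0.27, -1.54 to -0.35, limma adjusted p = 0.0775) in wild-type lungs. The wild-type value missed the threshold as tested and passed it under 4 of 28 alternatives, over all of which the adjusted p lay between 0.0219 and 0.279 and the difference between -1.43 and -0.70. Within the endothelial marker list, members included, 8 of 28 measured genes had a negative estimate and 3, Cdh5 among them, a positive one at an unadjusted p under 0.05 in wild-type lungs, against 8.68% and 11.6% of all probes. The summed log2 level of that list without the members was 14.4 to 14.7 in ventilated wild-type lungs, against 14.6 to 14.8 in wild-type controls, and the part of endothelial content in the Tek values was not tested.

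Angpt2 (chr8:18690263-18741562), the Tie2 ligand that endothelial cells store and release, was among the steadiest members. Its values spanned 5.35 to 6.13 in ventilated jnk1-/- lungs, 5.34 to 5.80 in jnk1-/- controls, 5.40 to 5.98 in ventilated wild-type lungs and 5.65 to 6.13 in wild-type controls. The differences were 0.11 (-0.38 to 0.61) and -0.22 (-0.71 to 0.28), with limma adjusted p = 0.815 in jnk1-/- and 0.652 in wild-type lungs. Angpt1 (chr15:42424667-42676977), the activating ligand, was at the authors' floor on 13 of 14 arrays and is not read further.

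Counted together, 1 of 9 members was higher and none lower in the jnk1-/- comparison, in which 11.8% of all probes were called, 6.77% higher and 4.98% lower. In the wild-type comparison 1 of 9 was higher and none lower, against 3.67% of all probes called, 2.15% higher and 1.52% lower. At an unadjusted p under 0.05, 2 of 9 members had a positive estimate (Selp and Sele) and 0 a negative one in jnk1-/- lungs, against 13.6% and 13% of all probes. In wild-type lungs 2 of 9 had a positive estimate, Selp and the Cdh5 probe unmeasured in all 3 controls, and 1 a negative one (Tek), against 11.6% and 8.68% of all probes. Beyond Selp these counts are near those of all probes. Groups without overlap were found for 2 members on the higher side in jnk1-/- lungs, where 12.4% of all probes had such a pattern (11% on the lower side), and for 2 on the higher side and 1 on the lower side in wild-type lungs, against 11.2% and 10.6% of all probes. The median member changed by 0.30 in jnk1-/- and -0.10 in wild-type lungs, against -0.04 and 0.08 for all probes, with Cdh5 and Angpt1 included.

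No member differed between genotypes by limma. In ventilated lungs 0 of 9 were called, as were 0.525% of all probes, with 2 members (Selp and Sele) at an unadjusted p under 0.05, against 10.1% of all probes. In controls the count was 0 of 9, against 4.03% of all probes, with 1 member (Cdh5, unmeasured in all 3 wild-type controls) at an unadjusted p under 0.05, against 20.6% of all probes. For the difference of the ventilation effect it was 0 of 9, against 0.392% of all probes, with 0 members at an unadjusted p under 0.05, against 12.9% of all probes. The methods' t-test also called 0 members in ventilated lungs and in controls, and was not run on the difference of effects. Control groups of the 2 genotypes overlapped for every member, against 13.3% of all probes without overlap on the higher side and 13.2% on the lower side.

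Sele came nearest to a difference between the ventilated genotypes. Its lowest ventilated jnk1-/- array, 4.57, lay above its highest ventilated wild-type array, 4.43, a pattern found on that side for 3.11% of all probes and on the lower side, where no member had it, for 3.23%. Sele was higher by 0.95 in ventilated jnk1-/- lungs (SE 0.30, 0.30 to 1.60, limma adjusted p = 0.272), and by 0.60 in jnk1-/- controls (-0.15 to 1.35, limma adjusted p = 0.35). Its ventilation effect differed by 0.35 between the genotypes (-0.64 to 1.34, limma adjusted p = 0.78).

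For Selp the ventilated genotypes differed by 0.49 (0.01 to 0.96, limma adjusted p = 0.48) and the controls by 0.27 (-0.27 to 0.82, limma adjusted p = 0.576). The ventilation effect was 0.21 larger in jnk1-/- than in wild-type lungs, with an interval of -0.51 to 0.94 (limma adjusted p = 0.816). True differences of either sign within that interval are compatible with these arrays, and no difference in the Selp response was called. The Tek effect differed by 0.54 (-0.30 to 1.39, limma adjusted p = 0.583) and the Cldn5 effect by -0.10 (-1.54 to 1.33, limma adjusted p = 0.962).

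**Figure D3:**
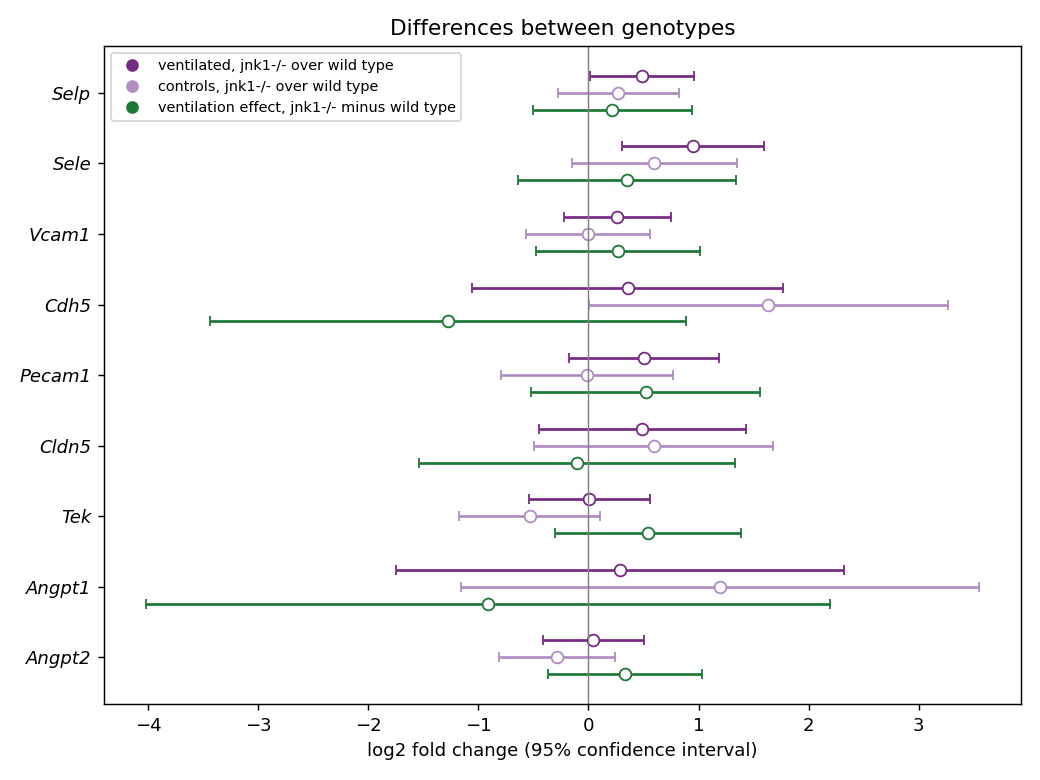
Differences between genotypes on the log2 scale (x axis) for each gene (y axis), with 95% intervals from limma: jnk1-/- over wild type after ventilation (dark purple), in controls (light purple), and the ventilation effect in jnk1-/- minus that in wild type (green). No point is filled, as none passed an adjusted p under 0.05; the Sele estimate after ventilation is 0.95.

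The median estimate over the 9 members for ventilated jnk1-/- over ventilated wild-type lungs was 0.36, against -0.02 for all probes. It is that of Cdh5, mostly at the authors' floor. The estimates of 9 of 9 members were positive, from 0.007 for Tek to 0.95 for Sele, and 0 were called. A shift of the members as a set was not tested. In controls the median was 0.27, against 0.09, and it is that of Selp. The members were measured on the same arrays and are not independent of each other, and the ventilation and genotype comparisons share arrays.

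Platelets also carry P-selectin, so their markers are given beside Selp. Of 9 measured platelet markers of 12 listed, 0 were called by limma with ventilation in either genotype. Of all probes 11.8% were called in jnk1-/- and 3.67% in wild-type lungs. At an unadjusted p under 0.05 there were 2 markers lower in jnk1-/- lungs and 0 in wild-type lungs, against 13% and 8.68% of all probes. The summed log2 level of the platelet markers was 9.94 to 10.4 in ventilated jnk1-/- lungs, against 10.3 to 10.6 in jnk1-/- controls, and 11.1 to 11.6 in ventilated wild-type lungs, against 11.4 to 11.9 in wild-type controls. The part of platelet RNA in the Selp values was not tested. Between genotypes 2 of 9 platelet markers were lower in jnk1-/- lungs after ventilation and 2 in controls, against 0.525% and 4.03% of all probes called in either direction. Ppbp, a platelet chemokine, differed by -1.55 in ventilated lungs (limma adjusted p = 0.0126) and by -1.62 in controls (limma adjusted p = 0.00915).

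The genes most like Selp were found by Pearson correlation over the 14 arrays, among 8366 probes with 1 gene name and a mean above the median. They were Tti2 (r = 0.983), Arid5a (r = 0.981) and Noct (r = 0.974). The correlation rests largely on the step between ventilated and control lungs that these arrays share. Arid5a encodes an RNA-binding protein that stabilizes inflammatory mRNAs, and Noct encodes nocturnin, a protein of circadian rhythm. Their ventilation changes were 3.09 in jnk1-/- and 3.40 in wild-type lungs for Tti2, 2.55 and 2.54 for Arid5a, and 2.91 and 2.31 for Noct. Selp correlated with Sele at r = 0.563, with Cldn5 at 0.615 and with Tek at -0.739 over the same arrays, given as descriptions.

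Other genes of leukocyte adhesion, 22 measured of 28 listed, had a median change of 0.03 in jnk1-/- and 0.08 in wild-type lungs, with members on both sides. In jnk1-/- lungs 3 were higher and 1 lower, against 6.77% and 4.98% of all probes. At an unadjusted p under 0.05 there were 6 higher and 4 lower, against 13.6% and 13% of all probes. Those called were Esam, an endothelial adhesion molecule (0.94, limma adjusted p = 0.0186), Itgav, an integrin alpha chain (0.95, 0.0212), Cd34, a sialomucin (0.75, 0.0389), and on the lower side Cd99l2, a relative of CD99 (-1.20, 0.0289). In wild-type lungs these genes changed by 0.48, -0.10, -0.09 and -0.43 in that order, none called. Called in wild-type lungs were 2 higher and 0 lower, against 2.15% and 1.52% of all probes. Itgam, the alpha chain of the leukocyte integrin Mac-1, averaged 6.70 in ventilated and 5.16 in control wild-type lungs, a change of 1.54 (limma adjusted p = 0.0153). Its change in jnk1-/- lungs was 0.73 (limma adjusted p = 0.131). Itgb3 also passed the test in wild-type lungs, but it was unmeasured in all 3 wild-type controls and no fold is given.

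Itgam is also a neutrophil marker. Of 14 measured neutrophil markers, 6 rose and 1 fell in jnk1-/- lungs and 6 rose in wild-type lungs, with medians of 1.68 and 2.50. These include genes at the authors' floor in some groups, among them Trem1, called as rising but unmeasured in all 3 controls of each genotype. Mpo was unmeasured in all 3 wild-type controls and on 3 of 4 ventilated wild-type arrays. The shares of all probes were 6.77% higher and 4.98% lower in jnk1-/- lungs, and 2.15% higher in wild-type lungs. Mmp8, neutrophil collagenase and a gene the study singled out on these arrays, rose by 5.41 in jnk1-/- lungs (limma adjusted p = 8.75e-06) and by 5.31 in wild-type lungs (limma adjusted p = 3.27e-05). The summed log2 level of the neutrophil markers was 13.6 to 14.9 in ventilated jnk1-/- lungs, against 11.2 to 11.4 in jnk1-/- controls, and 14.2 to 14.9 in ventilated wild-type lungs, against 11.7 to 12.4 in wild-type controls. The part of neutrophil RNA in the leukocyte adhesion genes was not tested.

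Of 23 measured junction genes of 30 listed, 5 were higher and 0 lower in jnk1-/- lungs, against 6.77% and 4.98% of all probes. In wild-type lungs 3 were higher and 2 lower, against 2.15% and 1.52% of all probes. Those that rose in both genotypes were claudins of epithelium. Cldn4 rose by 2.57 in jnk1-/- (limma adjusted p = 0.0186) and by 3.24 in wild-type lungs (limma adjusted p = 0.0142), and Cldn7 by 0.60 (0.0331) and 0.88 (0.0142). Also higher in jnk1-/- lungs were Jup, which encodes plakoglobin (2.23, 0.00455), and Cdh1, which encodes E-cadherin (0.85, 0.0238). In wild-type lungs Jup changed by 0.18 and Cdh1 by 0.53, neither called. Jup was 4.45 in jnk1-/- controls and between 6.68 and 7.02 in the other 3 groups, and it differed between jnk1-/- and wild-type controls by -2.38 (limma adjusted p = 0.0104). In wild-type lungs Cdh11 (-1.38, limma adjusted p = 0.0211), a mesenchymal cadherin, and Nectin3 (-1.22, 0.0225), a nectin of adherens junctions, fell. Of the 3 probes of Nectin3 only the brightest passed, and the others gave -1.22 and -0.94. In jnk1-/- lungs Cdh11 changed by -0.86 and Nectin3 by -0.52, neither called.

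The list of angiopoietin and vascular growth factor signalling held 24 measured genes of 28. Of these, 5 were higher and 2 lower in jnk1-/- lungs, against 6.77% and 4.98% of all probes. In wild-type lungs 4 were higher and 1 lower, against 2.15% and 1.52% of all probes. Sphk1, which makes sphingosine 1-phosphate, rose by 2.75 in jnk1-/- (limma adjusted p = 2.80e-04) and 2.11 in wild-type lungs (limma adjusted p = 0.00351), by the brighter of its probes; the other probe gave -0.94 and 0.76, neither called. Angptl4, an angiopoietin-like secreted protein that does not act through Tie2, rose by 2.31 (0.00377) and 2.60 (0.0051). Klf2, a flow-responsive transcription factor of endothelium, fell by 1.498 in jnk1-/- lungs (limma adjusted p = 0.00306) and changed by -0.62 in wild-type lungs (0.173). Kdr, the main receptor of vascular endothelial growth factor, fell by 0.99 in wild-type lungs (limma adjusted p = 0.0228) and changed by -0.51 in jnk1-/- lungs (0.130). Adm, which encodes the vasodilator adrenomedullin, passed the test in both genotypes but was unmeasured in 2 of 3 jnk1-/- and 3 of 3 wild-type controls, so no fold is given.

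Among 28 measured endothelial markers, members included, 3 were higher and 2 lower in jnk1-/- lungs, against 6.77% and 4.98% of all probes. In wild-type lungs 0 were higher and 2 lower, against 2.15% and 1.52% of all probes. The list medians were -0.22 in jnk1-/- and -0.25 in wild-type lungs. Acvrl1, a receptor of the transforming growth factor family on endothelium, fell in both, by 1.18 in jnk1-/- (limma adjusted p = 0.00547) and by 0.85 in wild-type lungs (limma adjusted p = 0.0495). Clec14a, an endothelial lectin, fell by 1.04 in jnk1-/- lungs (limma adjusted p = 0.0137), and Cd93, a related lectin-like receptor, rose by 0.92 (limma adjusted p = 0.0269). In wild-type lungs Clec14a changed by -0.84 (limma adjusted p = 0.0643) and Cd93 by 0.64 (0.152). No gene of the leukocyte adhesion, junction, angiopoietin or endothelial lists was called for the difference of the ventilation effect, against 0.392% of all probes. Those at an unadjusted p under 0.05 were 5 of 22, 1 of 23, 5 of 24 and 2 of 28 in that order, against 12.9% of all probes. Selp was not part of the endothelial marker list.

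**Figure D4:**
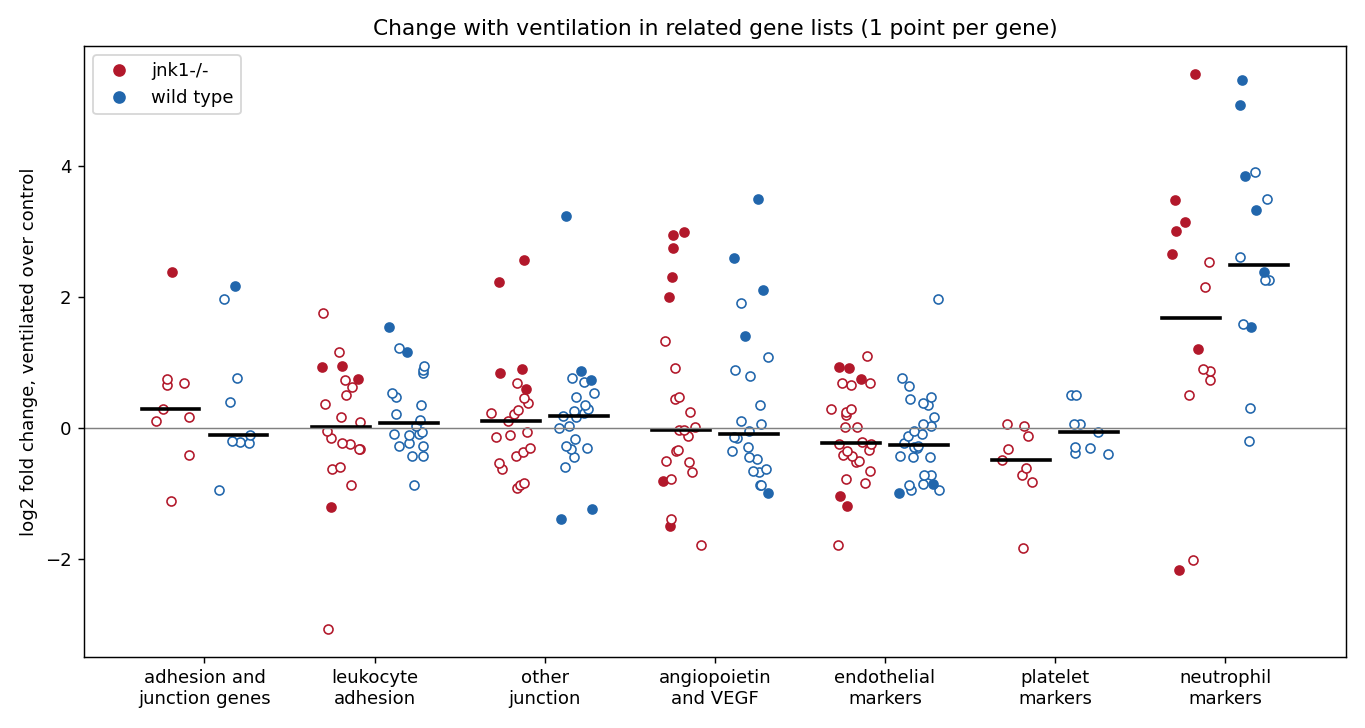
Log2 fold change of ventilated over control lungs (y axis) for the genes of 7 lists (x axis), 1 point per gene in jnk1-/- (red) and wild-type mice (blue), with filled points at an adjusted p under 0.05 in limma and black bars at the list medians. The neutrophil markers have medians of 1.68 in jnk1-/- and 2.50 in wild-type lungs, genes at the authors' floor included, while no platelet marker is filled.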

How the data were processed

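For each array the authors deposited log2 intensities without scaling between arrays (CodeLink UniSet mouse bioarrays, biotin-labelled cRNA stained with Cy5). A second table holds the log2 values the authors had normalized by cyclic loess, floored at 3.12. Quality flags were not used here. Starting from the per-array values, every pair of arrays was brought together by cyclic loess in R 4.3.3, a floor was set at the 1st percentile, and 4 group means were fitted in limma 3.58.1 by lmFit and eBayes. P-values were adjusted by Benjamini-Hochberg across the 19621 probes and called under 0.05. The contrasts set ventilated against control lungs within a genotype, jnk1-/- against wild type within a condition, and the ventilation effects of the genotypes against each other. Medians of the arrays were 4.98 to 6.37 before and 5.75 to 5.85 after normalization, and precision is limited by how many arrays there were. Normalized values correlated with those of the authors at 0.990 or more above the floor. One title of a ventilated wild-type sample spells the strain differently and was taken as wild type.

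Probes were named through GEO's platform annotation, in which 15353 name 1 gene, 91 several and 4177 none, with symbols updated through RefSeq genes of GRCm38.p6. A gene of a list was read from its brightest probe. Named genes are all members, the 3 genes most correlated with each called member, Mapk8, and called genes of the lists. From a list at most 4 called genes a comparison were named by adjusted p. Some called genes were left unnamed, among them neutrophil markers and genes that differed between genotypes. The members and lists were chosen with earlier results of these data known. Same-numbered replicates did not deviate together (correlations of -0.05 to 0.07), so they were not treated as pairs. The steps were tested on simulated data for the wild-type ventilation comparison, with changes placed in probes above the 30th percentile of brightness. Of 100 simulated 2-fold changes 23% were called, and of 100 4-fold changes 82%, with 5.41% of calls false. A member that was not called may thus still have changed by 2-fold where its 95% interval reaches 1 log2 unit. The ventilation intervals of Vcam1 and Angpt2 did not reach it in either genotype. Alternatives covered normalization, the authors' values, the test, the arrays in the fit, dim probes, the floor, a replicate block, array weights and left-out arrays. Plots were made with Python 3.11.15 and matplotlib 3.10.9.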

Additional observations from a re-analysis of the deposited data

How the results depend on the processing

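Over 28 alternatives, 1225 of 1232 values of the 45 member results stayed on the same side of the threshold, 1 lost its call and 6 gained one; 46 uncalled values changed sign and no called value did. Selp changed by 2.29 to 2.52 in jnk1-/- lungs, called in 28 of 28, and by 2.00 to 2.35 in wild-type lungs, called in 27 of 28 and lost under the methods' t-test (adjusted p = 0.0718). The count of members called stayed as reported in 4 of the 5 comparisons under every alternative run. In the wild-type ventilation comparison it was 1 as reported, 2 with median centring (Selp, and Tek at -1.28 with adjusted p = 0.0275), 0 with the methods' t-test, 2 with dim probes left out (Tek adjusted p = 0.0391), 3 with array weights (Cdh5 adjusted p = 0.0225, Tek adjusted p = 0.0359) and 2 with a trended robust eBayes (Tek adjusted p = 0.0219). Leaving out 1 array at a time gave 1 to 2, with Cdh5 added without wild-type control replicate 1. The adjusted p of Tek lay between 0.0219 and 0.279 over all alternatives and that of Cdh5 between 0.0225 and 0.902, and the cause was not tested. With the replicate number as a block, which pairs no animals, 1 member was called in each ventilation comparison, Selp at 2.49 in jnk1-/- and 2.28 in wild-type lungs, and it changed no member's call. Leaving out wild-type control replicates 2 and 3 together, or averaging the close pairs of control arrays, both chosen after seeing the data, changed no member's call either. The number of all probes called moved far more, between 57 and 3768 in the jnk1-/- ventilation comparison (2306 as reported), 9 and 2227 in wild-type (720), 2 and 2140 between controls (790), 17 and 240 between ventilated genotypes (103), and 18 and 341 for the difference of the effect (77). Median centring gave 43.7% of called probes as higher in the wild-type comparison, against 58.6% as reported, and 30.3% between controls, against 45.4%. Another choice of probe per gene could not be run, since each member had 1 probe, and the methods' t-test and the fits of the compared groups alone give no difference of effects. Low signal limits Cdh5 and Angpt1, and with 3 or 4 arrays a group the genotype intervals are wide.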
